A study of Rattus norvegicus with 48 samples.

Results

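Tazemetostat inhibits Ezh2, the methyltransferase of Polycomb repressive complex 2 (PRC2), and the transcripts of this enzyme, its partners, its opponents and its classical targets were followed here in rat primary cortical cultures. Genes were chosen by symbol from the deposited expression table: Ezh2, Ezh1, Eed, Suz12 and Jarid2 of PRC2, the H3K27 demethylases Kdm6a and Kdm6b, and the CDK inhibitors Cdkn2a, Cdkn2b and Cdkn1a. All 10 were among the 30211 genes of the table and among the 15890 genes tested, which reached 0.5 CPM (reads of a gene per M reads of the library) in 3 or more libraries. Values were CPM in 48 RNA-seq libraries, 3 in each of 16 groups.

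PRC2 places methyl groups on lysine 27 of histone H3, a mark found at silent developmental and cell cycle inhibitor genes. Ezh2 or its paralog Ezh1 is the catalytic subunit, Eed binds the finished mark and Suz12 holds the core together, whereas Jarid2 is a cofactor that helps to bring the complex to DNA. Kdm6a and Kdm6b remove the mark, and the locus that holds Cdkn2a and Cdkn2b is a classical Polycomb target in proliferating cells.

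Cultures were prepared from cortex of fetal Sprague-Dawley rats and used after 21 days in vitro. Groups were Control, Cocaine (25 µM for 24 h), Tat (the HIV-1 transactivator, 6 ng/mL for 48 h) and Tat-Cocaine, and each of 4 compounds by itself, added to Tat, or added to Tat plus cocaine, for 48 h. The compounds were tazemetostat (3 µM), amlexanox (25 µM, an inhibitor of the kinases TBK1 and IKKε), 4-octyl itaconate (4OI, 250 µM, a cell-permeable itaconate ester) and senicapoc (1 µM, a blocker of the KCa3.1 potassium channel). The labels do not say whether the 3 libraries of a group came from separate preparations of cells, and the p-values then measure only the spread between these libraries, which may be technical. What Control cultures received as vehicle is not stated either. The study describes cocaine as following 48 h of Tat, with or without 4OI, for 24 h more. Tat-Cocaine groups may thus differ from Tat groups in total time as well as in cocaine, and these cannot be told apart. The mark on histone H3 was not measured in these files.

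Depth was 17.5 to 29.1 M reads per library (median 22.4 M). The labels call the cells neurons. All 9 neuron markers were detected, as were all 7 astrocyte markers, all 9 markers of microglia and macrophages and all 7 of the oligodendrocyte lineage, and 5 of 7 markers of fibroblasts and vessels were in the table, with medians of 125 CPM for Col1a1, 45.9 CPM for Pdgfrb and 0 CPM for the endothelial Cldn5. The values are thus those of mixed cultures, and fewer cells of a type cannot be told apart from less RNA per cell. In the library labelled Cocaine replicate 3 the 7 oligodendrocyte markers summed to 22530 CPM, while the next highest of the 48 libraries, a Tat library, had 2247 CPM. Levels are not compared between genes, since CPM is not per length.

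The promoters of 8 of the 10 genes were matched in RefSeq (rat build GRCr8), and 2 genes, Ezh1 and Kdm6a, had no entry. Sequences are shown for the 4 genes whose transcripts moved most clearly with tazemetostat or Tat, because CG-rich promoters are the usual seat of PRC2. Each is the stretch of 250 bases before the annotated start, read 5′ to 3′ on the gene's strand, with CG dinucleotides in capitals. Cdkn2a (chr5:109107957-109108206) and Cdkn2b (chr5:109134856-109135105) lie on the minus strand of the same chromosome, as do Jarid2 (chr17:20161971-20162220) and Eed (chr1:153307501-153307750) on theirs.
Cdkn2a: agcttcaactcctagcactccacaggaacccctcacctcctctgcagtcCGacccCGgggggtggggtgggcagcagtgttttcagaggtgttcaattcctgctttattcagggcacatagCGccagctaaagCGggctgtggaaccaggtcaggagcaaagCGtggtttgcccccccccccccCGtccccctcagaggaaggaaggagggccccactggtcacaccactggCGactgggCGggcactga
Cdkn2b: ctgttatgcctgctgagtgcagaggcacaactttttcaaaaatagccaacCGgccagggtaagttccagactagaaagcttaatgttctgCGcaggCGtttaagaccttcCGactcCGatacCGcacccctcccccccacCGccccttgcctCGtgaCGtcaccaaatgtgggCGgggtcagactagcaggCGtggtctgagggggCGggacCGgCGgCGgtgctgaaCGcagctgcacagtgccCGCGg
Jarid2: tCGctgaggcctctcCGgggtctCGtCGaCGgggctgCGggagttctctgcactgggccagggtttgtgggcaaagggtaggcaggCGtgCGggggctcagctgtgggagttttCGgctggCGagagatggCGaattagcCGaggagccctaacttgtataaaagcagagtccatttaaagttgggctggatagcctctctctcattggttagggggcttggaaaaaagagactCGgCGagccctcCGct
Eed: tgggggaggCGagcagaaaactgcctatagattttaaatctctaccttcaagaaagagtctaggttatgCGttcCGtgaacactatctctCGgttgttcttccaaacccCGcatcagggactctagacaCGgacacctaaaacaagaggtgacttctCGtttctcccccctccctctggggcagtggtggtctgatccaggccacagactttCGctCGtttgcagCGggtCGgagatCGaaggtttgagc
The stretches held 8 CG in Cdkn2a, 18 in Cdkn2b, 15 in Jarid2 and 12 in Eed, against a median of 5 over 33469 rat promoters of this length. At least as many CG as in Cdkn2a were found in 41.6% of all promoters, and at least as many as in Cdkn2b in 20.1%. Suz12 had the most of the 8 (33, reached by 3.6% of promoters) and Ezh2 had 23 (12.3%). The letters TTTNNCGC, a core of the sites of E2F cell cycle factors, were searched on both strands and occurred in 1 of the 8 stretches, that of Suz12, and in 4.11% of all promoters. The deposited row of Cdkn2a sums the transcripts of p16INK4a and ARF, which start at different promoters, and the entry shows 1 of them.

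In cultures given tazemetostat the transcript of its own target did not pass the test in any comparison with matching cultures without the compound, and the genes that did were Cdkn2a and Cdkn2b, which rose, and Jarid2, which fell. These 3 changes were called when tazemetostat was added to Tat and cocaine. With tazemetostat alone 0 of the 10 genes were called (limma on log2(CPM + 0.5), Benjamini-Hochberg FDR under 0.05), as were 0% of all 15890 genes. Added to Tat, tazemetostat again gave 0 of 10 called and 0% of all genes. At an unadjusted p under 0.05, 576 genes and 0 of the 10 differed with tazemetostat alone, and 851 genes and 1 of the 10 (Jarid2) when it was added to Tat.

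Added to Tat and cocaine, tazemetostat gave 3 of 10 genes called, against 28.7% of all genes tested. The share of the 10 genes was near that of all genes. Over the 3 backgrounds together (9 libraries against 9), 2 of 10 were called, Cdkn2a and Jarid2, against 11.4% of all genes. The median log2 fold change of the 10 genes was 0.18 in Tat-Cocaine cultures and 0.08 over the backgrounds, beside 0.02 and 0.01 for all genes. Whether the effect differed between backgrounds was tested apart: the effect with Tat minus that alone was called for 0 of 10 genes (0% of all genes), and the effect with Tat and cocaine minus that alone also for 0 of 10 (0%). For these differences 271 and 2187 genes, and 0 and 2 of the 10 (Cdkn2a and Jarid2), had an unadjusted p under 0.05.

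**Figure D1:**
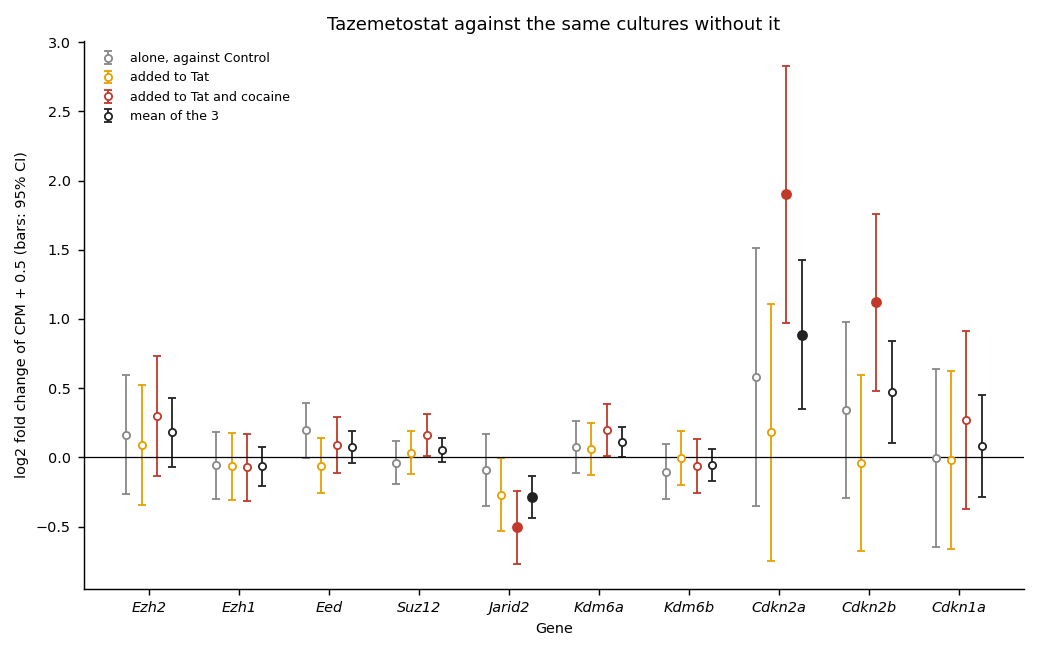
Log2 fold change of CPM + 0.5 (vertical axis) with its 95% confidence interval for each of the 10 genes (horizontal axis) when tazemetostat was given by itself, added to Tat, or added to Tat plus cocaine, and as the mean of the 3. Filled points had an FDR under 0.05: Cdkn2a (1.90), Cdkn2b (1.12) and Jarid2 (-0.50) in Tat-Cocaine cultures, and Cdkn2a (0.89) and Jarid2 (-0.29) in the mean.

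Ezh2, the target itself, stood between 9.74 and 20.8 CPM in the 48 libraries (182 to 490 reads). In Control cultures it was 11.2, 13.1 and 17.2 CPM, and with tazemetostat alone 12.7, 14.98 and 18.95 CPM. In Tat-Cocaine cultures it was 12.3, 13.9 and 15.02 CPM, and with tazemetostat added 15.6, 20.3 and 15.3 CPM. The last pair of groups did not overlap, while the first did. Tat (11.3 to 20.4 CPM) and Tat-Tazemetostat cultures (15.2 to 17.5 CPM) overlapped as well. When tazemetostat was added to Tat and cocaine, 42.9% of all genes had an unadjusted limma p under 0.05. The share of all genes without overlap was not computed, so lack of overlap here and below is a description. The fitted log2 fold change of Ezh2 was 0.30 (SE 0.21, 95% interval -0.14 to 0.73, FDR 0.29) in Tat-Cocaine cultures and 0.18 (-0.07 to 0.43, FDR 0.29) over the 3 backgrounds. The interval over the backgrounds allows a fall of at most 0.07 on the log2 scale.

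Among the 16 groups the mean of Ezh2 was highest in Tat-Cocaine-Tazemetostat cultures (17.1 ± 2.8 CPM, SD, n = 3) and lowest in Tat-4OI cultures (11.4 ± 2.1). Each of the 15 steps between neighbours in that order was smaller than the larger SD of the 2 groups. The same held for Cdkn2a, whose group means differed up to 10.8-fold, so small steps do not show that Ezh2 is flat. Libraries of Ezh1, the catalytic subunit used more in cells that no longer divide, lay between 32.3 and 51.0 CPM, and its log2 fold change with tazemetostat over the 3 backgrounds was -0.06 (95% interval -0.20 to 0.07, FDR 0.52).

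The balance of the 2 paralogs was taken as the log2 ratio of Ezh2 to Ezh1 within a library, read only for its change between groups. It was -1.56 ± 0.40 in Control and -1.34 ± 0.35 with tazemetostat, -1.56 ± 0.39 in Tat and -1.41 ± 0.07 in Tat-Tazemetostat, and -1.72 ± 0.14 in Tat-Cocaine and -1.35 ± 0.13 in Tat-Cocaine-Tazemetostat cultures (SD, n = 3 each). The mean difference over the 3 backgrounds was 0.25 in favour of Ezh2, higher with tazemetostat in each of the 3. It did not pass the exact two-sided permutation test within backgrounds (p = 0.0708, 8000 arrangements).

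**Figure D2:**
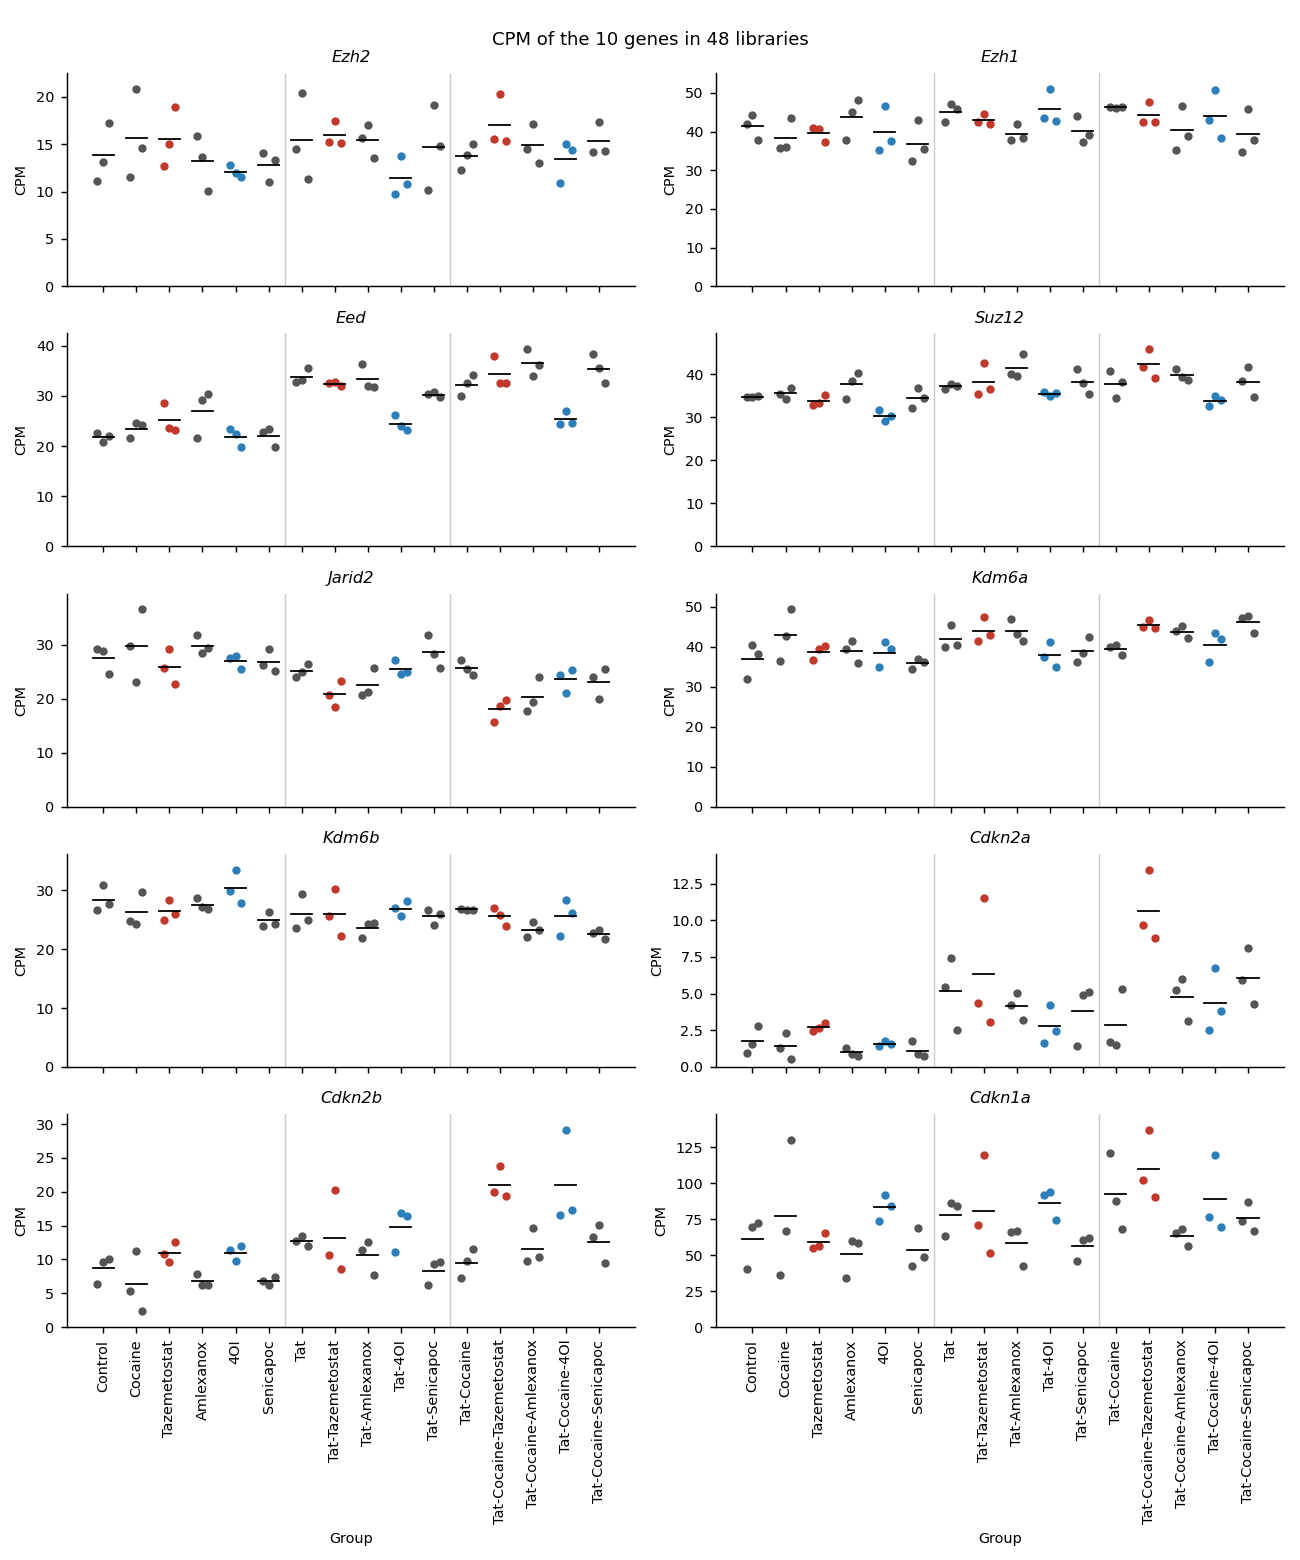
CPM (vertical axes, from 0) of the 10 genes in each of 48 libraries, by group (horizontal axis); points are libraries, black bars group means, red tazemetostat groups, blue 4OI groups, grey all others. Cdkn2a reaches 8.79 to 13.5 CPM in Tat-Cocaine-Tazemetostat cultures, and Eed is 29.7 CPM or more in every Tat library without 4OI.

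Eed, the subunit that reads the methyl mark, had the smallest p of the 10 genes for Tat. It was 22.7, 20.8 and 21.9 CPM in Control and 32.8, 33.1 and 35.5 CPM in Tat cultures, with no overlap. The log2 fold change was 0.62 (SE 0.10, 95% interval 0.42 to 0.82, FDR 1.74e-05). Eed also rose in Tat-Cocaine against Control cultures, where it was 30.1, 32.5 and 34.1 CPM (log2 fold change 0.55, FDR 0.000153).

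Tat was then averaged over 5 settings, without a compound and with each of the 4 (15 libraries against 15). Eed lay between 19.8 and 30.4 CPM (median 22.7) without Tat and between 23.1 and 36.3 CPM (median 31.9) with it, and the mean log2 fold change was 0.38 (SE 0.04, FDR 8.02e-09). By p it stood behind 4.02% of all genes, and 23.6% of genes changed more on the log2 scale. It stayed called with each of the 30 libraries left out in turn.

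The 4OI groups stood apart in this gene. With Tat, Eed was 26.1, 24.0 and 23.1 CPM in the presence of 4OI, and with Tat and cocaine 24.5, 26.995 and 24.6 CPM. The other 24 libraries with Tat ranged from 29.7 to 39.3 CPM, so that the 6 libraries lay below all of them. Addition of 4OI to Tat lowered Eed (log2 fold change -0.46, FDR 0.00131), 1 of 10 genes called against 15.6% of all genes. The rise with Tat was 0.16 (95% interval -0.04 to 0.36) under 4OI. The difference between the Tat effect under 4OI and without a compound was -0.46 (SE 0.14, FDR 0.132) and was not called, as for all 10 genes, against 0.497% of all genes. Eed was the 1 gene of the 10 with an unadjusted limma p under 0.05 for that difference.

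Suz12, the scaffold of the core, varied little within groups, with a median SD of 5.45% of the mean. It was 29.1 to 40.3 CPM (median 34.6) without Tat and 34.9 to 44.7 CPM (median 37.2) with Tat in the 5 settings, a log2 fold change of 0.15 (SE 0.03, FDR 0.000279). When tazemetostat was added to Tat and cocaine, Suz12 was 41.8, 45.8 and 39.2 CPM against 40.7, 34.5 and 38.1 CPM, groups that overlap, and its log2 fold change of 0.16 had an FDR of 0.10. Eed and Suz12 thus both rose with Tat, whereas Ezh2 (0.09, 95% interval -0.10 to 0.29, FDR 0.41) and Ezh1 (0.09, -0.02 to 0.19, FDR 0.17) did not pass.

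Over the 5 settings 7 of the 10 genes were called for Tat, 5 higher and 2 lower, against 56.5% of all genes tested. With so many genes called, a count of 7 is near that of the transcriptome. For Tat against Control alone the count was 2 of 10, Eed and Cdkn2a, against 21.3% of all genes, and for Tat-Cocaine against Control it was 1 of 10, Eed, against 14.9%.

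**Figure D3:**
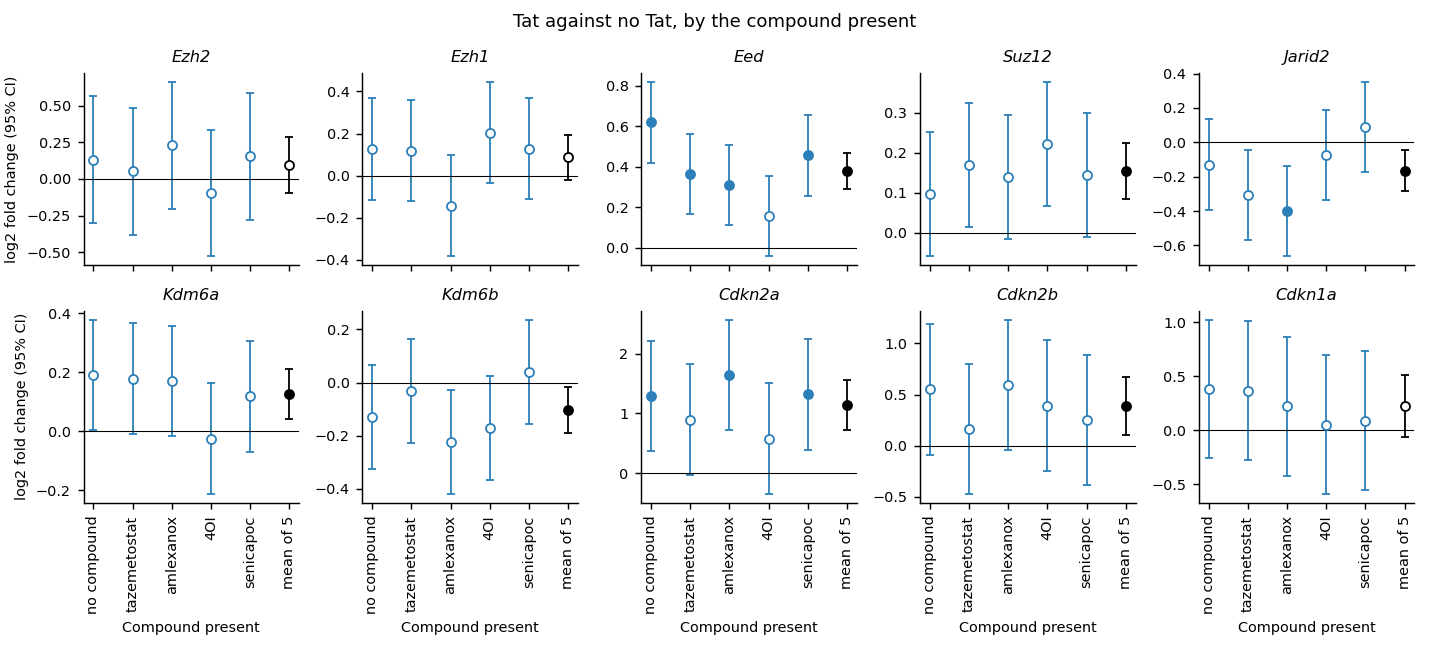
Log2 fold change of CPM + 0.5 with its 95% confidence interval (vertical axes) for Tat against no Tat, without a compound, under each of the 4 compounds (blue) and as their mean (black), in 1 panel per gene; filled points had an FDR under 0.05. Eed is above 0 with its whole interval in each setting except 4OI, and the intervals of Ezh2 include 0 in all 6 positions.

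Jarid2, the cofactor of PRC2, was the member of the complex that was called lower with tazemetostat. It was 27.2, 25.6 and 24.4 CPM in Tat-Cocaine and 15.7, 18.7 and 19.8 CPM in Tat-Cocaine-Tazemetostat cultures, which did not overlap. The log2 fold change was -0.50 (SE 0.13, 95% interval -0.77 to -0.24, FDR 0.00915). In Tat cultures it was 24.1, 24.9 and 26.5 CPM, and with tazemetostat 20.7, 18.5 and 23.3 CPM, again with no overlap. This second difference was -0.27 (95% interval -0.53 to -0.01) with an FDR of 0.92.

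With tazemetostat alone Jarid2 was 25.7, 29.2 and 22.8 CPM, which overlaps Control (29.3, 28.9 and 24.6 CPM). Over the 3 backgrounds the log2 fold change was -0.29 (SE 0.07, FDR 0.0158). It kept an FDR under 0.05 in 17 of 18 fits with a library left out, and without Tat-Tazemetostat replicate 2 it was -0.26 with an FDR of 0.0572. The call in Tat-Cocaine cultures ended on omission of Tat-Cocaine replicate 1 (FDR 0.0627) or of Tat-Cocaine-Tazemetostat replicate 2 (FDR 0.054). Jarid2 was also lower with Tat over the 5 settings (-0.16, SE 0.06, FDR 0.0157).

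Neither of the demethylases that oppose PRC2 was called for tazemetostat. Kdm6a, encoded on the X chromosome in mammals, was 39.98, 40.4 and 38.01 CPM in Tat-Cocaine and 44.99, 46.7 and 44.6 CPM in Tat-Cocaine-Tazemetostat cultures. These groups did not overlap, but the log2 fold change of 0.20 (95% interval 0.01 to 0.39) had an FDR of 0.0949. Tat over 5 settings raised Kdm6a by 0.13 (FDR 0.010), a call lost under quantile normalization (0.08, FDR 0.0793).

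Kdm6b, the inducible member of the pair, lay between 21.8 and 33.5 CPM in all libraries and was 26.9, 26.7 and 26.6 CPM in Tat-Cocaine against 27.01, 25.9 and 24.0 CPM with tazemetostat added. Its mean change with tazemetostat was -0.06 (95% interval -0.17 to 0.06, FDR 0.50). With Tat over 5 settings it was lower by a small step (-0.10, FDR 0.042), a call that 18 of 30 fits with a library left out kept and that was lost without a filter on low values (FDR 0.0539) and when only the compared groups were fitted (FDR 0.0543).

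Cdkn2a, whose products p16INK4a and ARF restrain CDK4 and CDK6 and stabilise p53, showed the widest range of the 10 genes. It stood between 0.523 CPM (13 reads) and 13.5 CPM (264 reads). In Tat-Cocaine cultures it was 1.70, 1.47 and 5.31 CPM, and with tazemetostat 9.66, 13.5 and 8.79 CPM, with no overlap. The log2 fold change was 1.90 (SE 0.46, 95% interval 0.97 to 2.83, FDR 0.00736), and 0.529% of all genes changed more in this comparison.

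In the other backgrounds the difference was smaller. Cdkn2a was 0.920, 1.57 and 2.81 CPM in Control and 2.42, 2.69 and 3.00 CPM with tazemetostat, groups that overlap (log2 fold change 0.58, 95% interval -0.35 to 1.51). It was 5.48, 7.45 and 2.51 CPM in Tat and 4.39, 11.5 and 3.04 CPM in Tat-Tazemetostat cultures (0.18, -0.75 to 1.11). Over the 3 backgrounds the log2 fold change was 0.89 (SE 0.26, FDR 0.0296). That call held in 11 of 18 fits with a library left out, and the FDR rose to 0.0899 on omission of Tat replicate 3, 0.0826 of Control replicate 1, 0.0727 and 0.0733 of Tat-Cocaine replicates 1 and 2, 0.0572 of Tazemetostat replicate 3, 0.111 of Tat-Tazemetostat replicate 2 and 0.0702 of Tat-Cocaine-Tazemetostat replicate 2. It was also lost when only the compared groups were fitted (FDR 0.0732). The effect with Tat and cocaine minus that alone was 1.32 (95% interval 0.01 to 2.63, FDR 0.36), so that a difference between backgrounds was not called.

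Each of 3 libraries decided the call in Tat-Cocaine cultures: the FDR was 0.059 and 0.0531 on omission of Tat-Cocaine replicate 1 or 2, and 0.064 on omission of Tat-Cocaine-Tazemetostat replicate 2. The log2 fold change stayed between 1.61 and 2.39 in all 6 such fits. The mean over the 2 backgrounds without cocaine, a comparison added after the values were seen, was 0.38 for Cdkn2a (FDR 0.873) and -0.18 for Jarid2 (FDR 0.659), with 0 of the 10 genes called.

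Cdkn2b encodes p15INK4b, another inhibitor of CDK4 and CDK6, from the same locus, where the RefSeq annotation places 1 protein-coding gene, LOC134479006, between it and Cdkn2a. It was 7.24, 9.82 and 11.6 CPM in Tat-Cocaine and 19.9, 23.8 and 19.4 CPM in Tat-Cocaine-Tazemetostat cultures, with no overlap. Its log2 fold change was 1.12 (SE 0.31, FDR 0.0127), lost on leaving out Tat-Cocaine replicate 1 (FDR 0.0897), Tat-Cocaine replicate 2 (FDR 0.0518) or Tat-Cocaine-Tazemetostat replicate 2 (FDR 0.077). Over the 3 backgrounds it was 0.47 (95% interval 0.11 to 0.84, FDR 0.0743) and did not pass.

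Cdkn2a and Cdkn2b also went together from library to library. Over the 48 libraries the log2 levels of Cdkn2a and Cdkn2b correlated with r = 0.78, and their deviations from the group means did so with r = 0.78. The libraries share their depth scaling and cell makeup, so this is a description. Jarid2 ran against both, with r = -0.81 for Cdkn2a and -0.74 for Cdkn2b over the libraries, and -0.66 and -0.76 within groups. Cocaine replicate 3, the library with the high oligodendrocyte markers, lay at the end of each range. It had the highest Jarid2 (36.6 CPM) and the lowest Cdkn2a (0.523 CPM) and Cdkn2b (2.37 CPM) of the 48 libraries. These correlations were not computed without it.

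With Tat over 5 settings Cdkn2a rose by 1.14 (SE 0.21, FDR 1.76e-05) and Cdkn2b by 0.39 (SE 0.14, FDR 0.018). Cdkn2a was 0.755 to 3.00 CPM (median 1.54) without Tat and 1.44 to 11.5 CPM (median 4.25) with it. Both genes kept the call with each of the 30 libraries left out. For Tat against Control alone the change of Cdkn2a (1.29, FDR 0.0402) was lost without Tat replicate 1 (FDR 0.108), Tat replicate 2 (0.23), Control replicate 1 (0.205) or Control replicate 2 (0.0814), and also when only the compared groups were fitted (0.122), without a filter (0.0622) and with voom weights (0.0548).

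Cdkn1a, the p53 target that encodes p21, did not pass in any comparison of tazemetostat with its controls. It was 121, 87.4 and 67.8 CPM in Tat-Cocaine and 102, 137 and 90.6 CPM in Tat-Cocaine-Tazemetostat cultures. The groups overlap, and the log2 fold change was 0.27 (95% interval -0.37 to 0.91, FDR 0.53). Its spread within groups was wide, with 35.99, 66.5 and 130 CPM in the 3 Cocaine libraries.

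Cocaine by itself called 0 of the 10 genes, against 0.201% of all genes, and 0 genes were called without Cocaine replicate 3, the library with the high oligodendrocyte markers. Cocaine added to Tat over 5 settings (15 libraries against 15) also called 0 of 10, against 4.55% of all genes. In the latter comparison the changes furthest from 0 were 0.30 for Cdkn2b (FDR 0.23) and 0.30 for Cdkn2a (FDR 0.43). At an unadjusted p under 0.05, 2 of the 10 differed in each of these comparisons. Under tazemetostat, Cdkn2a went from 4.39, 11.5 and 3.04 CPM with Tat to 9.66, 13.5 and 8.79 CPM with Tat and cocaine, groups that overlap (0.89, FDR 0.58).

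The other compounds were given in the same backgrounds, each at a single dose that differs from that of tazemetostat. Their effects over the 3 backgrounds were measured against the same 9 control libraries. Amlexanox called 0 of 10 genes (7.99% of all genes) and senicapoc 0 of 10 (1.16%), while 4 and 2 of the 10 had an unadjusted p under 0.05. 4OI called 3 of 10 (22.8% of all genes): Eed (-0.27, FDR 0.000648) and Suz12 (-0.14, FDR 0.0218) fell and Cdkn2b (0.54, FDR 0.0288) rose. In 4OI cultures Ezh2 changed by -0.20 (95% interval -0.45 to 0.05, FDR 0.27).

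**Figure D4:**
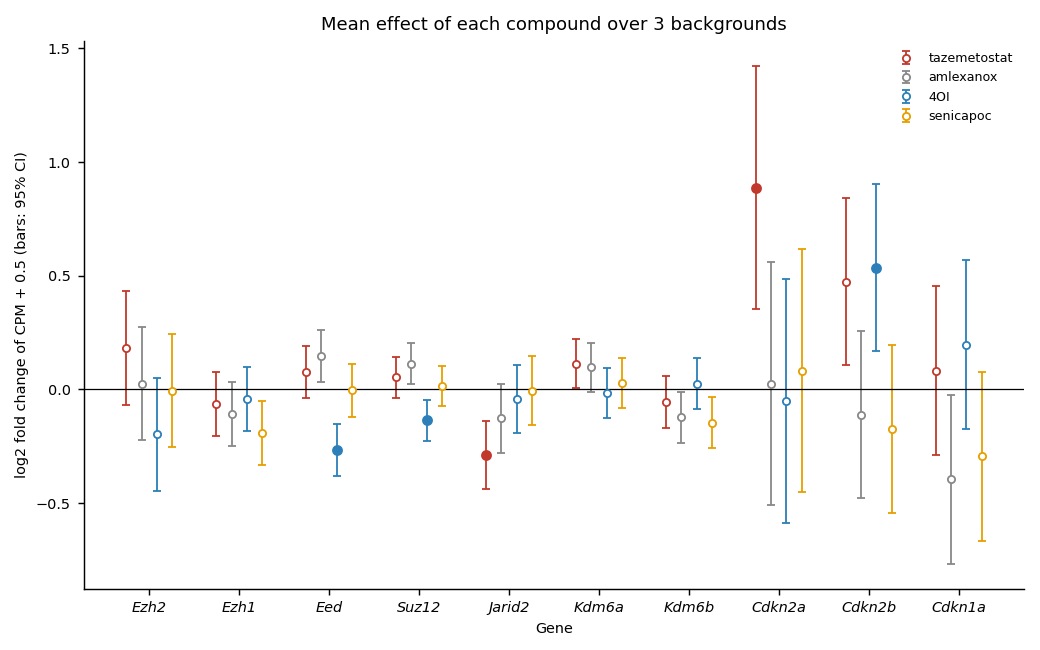
Mean log2 fold change of CPM + 0.5 over the 3 backgrounds (vertical axis) with its 95% confidence interval for each of the 10 genes (horizontal axis) under the 4 compounds; filled points had an FDR under 0.05. Cdkn2a is raised by tazemetostat (0.89) and has intervals that include 0 for the other compounds, while Eed and Suz12 are below 0 under 4OI.

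Direct differences between tazemetostat and each other compound over the 3 backgrounds do not use the control libraries. Cdkn2a was higher with tazemetostat than with amlexanox (0.86, SE 0.26, FDR 0.0204), 4OI (0.94, SE 0.26, FDR 0.00488) and senicapoc (0.80, SE 0.26, FDR 0.0218). Cdkn2b was higher than with amlexanox (0.58, FDR 0.0215) and senicapoc (0.65, FDR 0.00883). Against 4OI the difference of Cdkn2b was -0.06, with a 95% interval of -0.43 to 0.31.

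Jarid2 was lower with tazemetostat than with 4OI (-0.25, FDR 0.0085) and senicapoc (-0.28, FDR 0.00641), and against amlexanox the difference was -0.16 (95% interval -0.31 to -0.01, FDR 0.105). In all, 2 of 10 genes were called against amlexanox (24% of all genes), 3 of 10 against senicapoc (29.7%) and 6 of 10 against 4OI (43%). The comparison with 4OI was the only one of these in which Ezh2 was called, at 0.38 (SE 0.12, FDR 0.0129). The libraries were 12.7 to 20.3 CPM with tazemetostat (median 15.3) and 9.74 to 14.98 CPM with 4OI (median 11.99), ranges that overlap. Eed (0.34), Suz12 (0.19) and Kdm6a (0.13) were called with it, all higher with tazemetostat.

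Within Tat-Cocaine cultures alone, in comparisons of 3 libraries with 3 chosen after the values were seen, fewer of the differences were called. Cdkn2a was 5.27, 6.00 and 3.12 CPM with amlexanox, 2.53, 6.76 and 3.82 CPM with 4OI and 5.90, 8.13 and 4.26 CPM with senicapoc. All 9 lie below the 3 libraries with tazemetostat. The difference was called against 4OI (1.26, FDR 0.0408), but against amlexanox (1.09, 95% interval 0.16 to 2.02) its FDR was 0.17 and against senicapoc (0.78, -0.15 to 1.70) 0.36. Against Tat-Cocaine cultures without a compound the log2 fold change of Cdkn2a was 1.13 for senicapoc (95% interval 0.20 to 2.05, FDR 0.242), 0.81 for amlexanox (-0.12 to 1.74, FDR 0.349) and 0.64 for 4OI (-0.29 to 1.56, FDR 0.452), beside 1.90 for tazemetostat. All 4 compounds thus had values above 0 against these shared controls, and the call was made for tazemetostat.

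In these comparisons 0 of 10 genes were called against amlexanox (0.396% of all genes), 0 of 10 against senicapoc (0.0189%) and 4 of 10 against 4OI (24.4%). At an unadjusted p under 0.05 the first 2 counts were 3 and 2 of 10. The group without a compound thus differed from tazemetostat in far more genes (28.7%) than the amlexanox and senicapoc groups did. Cdkn2b reached 16.6, 29.2 and 17.2 CPM in Tat-Cocaine-4OI cultures, and 4OI added to Tat and cocaine called 2 of 10 genes (7.36% of all genes), Cdkn2b (1.07, FDR 0.0306) and Eed (-0.34, FDR 0.0296).

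Markers of cell types moved in the comparison in which Cdkn2a, Cdkn2b and Jarid2 were called. When tazemetostat was added to Tat and cocaine (28.7% of all genes called), 7 of 9 neuron markers fell and 0 rose. Their summed level went from 2135 to 2848 CPM down to 953 to 1454 CPM. Of the markers of microglia and macrophages 5 of 9 rose and 0 fell (761 to 1239 CPM against 1758 to 2830 CPM). Of 5 markers of dividing cells, 3 rose and 0 fell (65.3 to 129 CPM against 191 to 226 CPM). Of 7 oligodendrocyte markers 3 fell (858 to 1916 CPM against 353 to 639 CPM), of 7 astrocyte markers 1 fell, and of 4 tested fibroblast and vessel markers 2 fell. Astrocyte markers summed to 6534 to 8380 CPM against 5837 to 8528 CPM. With Tat over 5 settings (56.5% of all genes called) 7 of 9 neuron markers fell. Of microglia and macrophage markers 5 of 9 rose and 1 fell, and 5 of 5 markers of dividing cells rose. Among astrocyte markers called for Tat the largest changes were those of S100b (-1.28), Gja1 (-0.74), Gfap (-0.43) and Aldh1l1 (0.37). The part of these markers in the changes of the 10 genes was not tested.

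The other genes of the cell cycle, 23 of 25 tested, moved alongside. When tazemetostat was added to Tat and cocaine (28.7% of all genes called) 13 rose and 0 fell. Cenpf (1.63), Aurkb (1.62), Ccna2 (1.46) and Ccnb1 (1.43) led, and the median log2 fold change was 1.03 against 0.02 for all genes. With Tat over 5 settings (56.5% of all genes called) 19 rose and 0 fell, with Mcm5 (1.72) and Mki67 (1.71) in front. Cdkn2a, Cdkn2b and genes of cell division were thus higher in the same libraries. For tazemetostat against senicapoc in Tat-Cocaine cultures 0 of the 23 were called (0 at an unadjusted p under 0.05), with a median of 0.01.

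The summed level of these 23 genes was followed against the 10 members. Ezh2 correlated with it at r = 0.76 over the 48 libraries and at r = 0.88 within groups, the closest tie of Ezh2 to any of the 7 sums examined. For Cdkn2a the values were 0.89 and 0.81, and for Cdkn2b 0.59 and 0.72. Eed followed it over the libraries (0.61) but not within groups (-0.09). With the sum of the 7 astrocyte markers Eed had r = -0.61 over the libraries and -0.50 within groups. Suz12 (-0.62 and -0.57) and Ezh1 (-0.65 and -0.68) also ran against that sum. Kdm6a (-0.80 and -0.75) and Cdkn1a (-0.64 and -0.73) ran against the sum of the 9 neuron markers. Jarid2 ran with the sum of the 9 neuron markers (0.67 and 0.46) and with the oligodendrocyte markers (0.68 and 0.70). Both Jarid2 and the oligodendrocyte sum were highest in Cocaine replicate 3, which is included. Libraries share depth scaling and cell makeup, and no test was made.

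**Figure D5:**
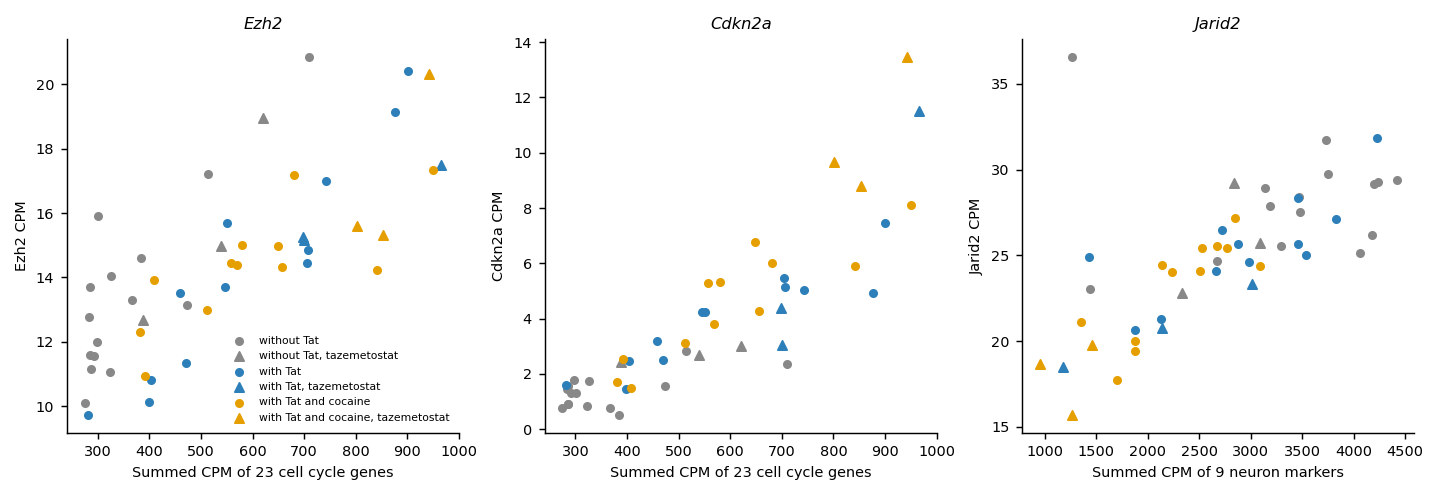
CPM of Ezh2 and Cdkn2a against the summed CPM of 23 cell cycle genes, and of Jarid2 against the summed CPM of 9 neuron markers, in 48 libraries; triangles are tazemetostat groups, grey without Tat, blue with Tat, orange with Tat and cocaine. Ezh2 and Cdkn2a rise along the horizontal axis (r = 0.76 and 0.89 on the log2 scale), and the grey point at the top of the right panel is Cocaine replicate 3.

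Some genes of the wider Polycomb system were called with tazemetostat, in either direction, when it was added to Tat and cocaine (28.7% of all genes called). Of 9 tested PRC2 accessory genes 1 rose in Tat-Cocaine cultures and 0 fell: Aebp2, a DNA-binding partner of PRC2 (0.47), which also rose over the 3 backgrounds (0.28). Of 22 tested genes of PRC1, the complex that binds the H3K27 mark and modifies histone H2A, Bmi1 rose (0.36, and 0.28 over the 3 backgrounds) and Cbx6 (-0.52) and Rybp (-0.40) fell. Of 11 enzymes and partners opposing Polycomb 0 were called (4 at an unadjusted p under 0.05), while over the 3 backgrounds Usp16, a deubiquitinase of histone H2A, rose (0.33, FDR 0.0429) and Kmt2c, a methyltransferase of H3K4, fell (-0.18, FDR 0.0376). Of 16 other histone lysine methyltransferases 2 were called, Nsd2 (0.37) and Suv39h2 (-0.41). The medians of these 4 lists were -0.01, -0.01, -0.04 and -0.03, beside 0.02 for all genes.

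Targets that Polycomb often holds silent stayed mostly low. Among 37 Hox genes of the table, 17 were listed at 0 in all libraries and 0 reached 0.5 CPM in any library. Of 53 other developmental factors, 51 were found and 20 tested. When tazemetostat was added to Tat and cocaine 2 of them rose and 0 fell, beside 28.7% of all genes called. These were the midbrain factor En2 (0.70) and the ligand Wnt6 (1.31), while the median of the list was -0.09. With Tat over 5 settings, where 56.5% of all genes were called, 7 of the 20 rose and 3 fell, with Wnt6 (2.49) and Tbx15 (0.97) in front.

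Of the other CDK inhibitors 3 were tested. When tazemetostat was added to Tat and cocaine Cdkn1c, which encodes p57, fell by 1.94 and Cdkn1b, which encodes p27, by 0.29 on the log2 scale. Cdkn1c varied widely in Tat-Cocaine cultures (3.26 to 22.9 CPM), and its lowest library there was close to the 2.55 to 2.85 CPM with tazemetostat. The other gene, Cdkn2c, which encodes p18, was higher with tazemetostat (10.52 ± 0.12 CPM against 7.64 ± 1.01 CPM, SD, n = 3) and did not pass, although all 3 genes had an unadjusted p under 0.05. Of 17 p53 targets tested 2 rose, Tp53inp1 (0.62) and Sesn2 (0.39), and 2 fell, Zmat3 (-0.31) and Sesn1 (-0.29). Of all genes 28.7% were called in this comparison. The median of the p53 targets was 0.01.

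The genes whose 16 group means were most like those of a member were found among genes with a mean of at least 2 CPM, on the log2 scale. For Jarid2 they were Pcdh17 (r = 0.97), Mpped2 (0.94) and Csmd1 (0.94), and for Ezh2 Sgk3 (0.94), Tram2 (0.93) and AABR07043748.2 (0.93). For Cdkn1a they were Pef1 (0.89), Nfe2l1 (0.88) and Parn (0.88), and for Kdm6b Zgpat (0.86), Dgcr2 (0.85) and Zrsr1 (0.83). Within groups the deviations of Pcdh17 still followed those of Jarid2 (r = 0.74), whereas those of Dgcr2 did not follow Kdm6b (r = -0.07). These are descriptions over 16 means that share controls and cell makeup.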

How the data were processed

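Polyadenylated RNA of 48 libraries was sequenced by the authors with a directional kit (the strand setting of the counting is not given in the sources used here), and the submitters' notes name Trim Galore 0.4.5, STAR 2.7.2, featureCounts of Subread 1.5.3 and SAMtools 1.5. The build is given as Rnor_6.0 in the study and as mRatBN7.2 in the notes. The signal the authors deposited is, for each gene and library, CPM of uniquely mapped reads after TMM scaling in edgeR. The sums of a library were 930399 to 1046892 CPM, and 84.3 to 87.3% of values above 0 were whole reads within 0.02 read, so that limma and no count test was used. The deposited table also holds group means and the authors' fold changes, p-values and FDR, which were not used.

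The labels gave groups and replicate numbers, and all 48 libraries were used. Values were analysed as log2(CPM + 0.5) with limma 3.58.1 in R 4.3.3 (lmFit, eBayes with trend), 1 mean per group in 1 fit to 48 libraries, for genes reaching 0.5 CPM in 3 or more of them. FDR is Benjamini-Hochberg over 15890 genes. Fold changes of low genes are understated by the added 0.5. The fit was tested on simulated data. The 10 members and all gene lists were chosen with earlier results of these data known. Named were all members, up to 4 genes per list past the threshold, the 5 largest rises and falls with tazemetostat, and the 3 genes most like each of 4 members. Comparisons within Tat-Cocaine cultures between compounds, the Tat effect under single compounds, 4OI in single backgrounds and cocaine added to Tat under tazemetostat were added after the values were seen.

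Replicate numbers are shared by all groups. In tazemetostat alone against Control same-numbered libraries deviated together (r of 0.454 to 0.814 over 3 pairs), and each of the 6 libraries correlated best with its own number, so the pairing holds there and a block was tried. In the other comparisons not every pair exceeded 0.1. Alternatives were other pseudocounts, filters, scalings, weights, a fit to the compared groups and each library left out. Figures were drawn with matplotlib 3.10.9.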

Additional observations from a re-analysis of the deposited data

How the results depend on the processing

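Values of the 10 genes, most of them uncalled in the main fit, were followed under the alternatives. Of 712 values under alternatives other than leaving out a library, 701 kept their side of the threshold. Their direction was kept too, or changed by less than the SE without a call. The call was lost in 9 and gained in 1, while 1 uncalled value changed direction by more than the SE and 0 reversed while called. With a library left out 989 of 1030 were kept by the same rule. Among them was Ezh2 with tazemetostat added to Tat, whose values ran from -0.1056 to 0.3044. The call was lost in 32 and gained in 2, while 7 uncalled values changed direction by more than the SE and 0 reversed while called. With tazemetostat over the 3 backgrounds, 591 genes and 1 of the 10 (Cdkn2a was lost) were called in a fit to the compared groups, 7 and 0 in the 2 backgrounds without cocaine. With tazemetostat added to Tat 5 genes were called with a pseudocount of 1 CPM, 3 with median ratio rescaling, 2 with quantile normalization and 6 without a trend, and with tazemetostat alone 2 without a filter. For Tat against Control 1252 genes were called in a fit to its groups, and 1 of the 10 there, without a filter and with voom weights. Cocaine added to Tat called 1093 genes in a fit to its groups, and cocaine alone 0 without Cocaine replicate 3. Scaling moved the share of higher calls for Tat against Control from 68.5% to 54.6% (quantile), and for Tat over 5 settings from 52.9% to 40.8%; for tazemetostat over 3 backgrounds it moved from 59.2% to 48.4% (median ratio).

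Leaving out 1 library gave 174 to 5865 genes and 0 to 3 of the 10 for tazemetostat added to Tat and cocaine (174 and 2895 without Tat-Cocaine-Tazemetostat replicates 2 and 1, 262 and 763 without Tat-Cocaine replicates 1 and 2), 412 to 3237 and 0 to 3 for tazemetostat over 3 backgrounds (412 and 3237 without Tat-Tazemetostat replicates 2 and 3, 2875 and 605 without Tat replicates 2 and 3, 624 without Control replicate 1, 761, 751 and 3182 without Tat-Cocaine replicates 1, 2 and 3, 848 without Tazemetostat replicate 3, 703 without Tat-Cocaine-Tazemetostat replicate 2), 0 to 6 genes for tazemetostat added to Tat, 1830 to 3857 and 1 to 2 for Tat against Control (1830 without Tat replicate 2, 2071 without Control replicate 1) and 401 to 1381 for cocaine added to Tat (401 and 1381 without Tat-Tazemetostat replicates 3 and 2, 444 without Tat-Amlexanox replicate 3, 455 without Tat-Senicapoc replicate 1, 408 without Tat-Cocaine-Amlexanox replicate 1). The cause was not tested.

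The replicate block changed no call of the 10 genes where the numbers pair, in tazemetostat alone against Control (0 genes with and without it). Elsewhere the labels give only a shared number, and same-numbered libraries deviated together in some pairs and not in others. There the block called 16 genes for tazemetostat added to Tat, 3430 for tazemetostat over 3 backgrounds, where Cdkn2b (0.47) reached an FDR of 0.0385, and 1150 for cocaine added to Tat. Own numbers correlated best in 4 of 6 libraries for tazemetostat added to Tat and 2 of 6 with Tat and cocaine. For Tat against Control the count was 1 of 6. Pooled, the counts were 12 of 18 for tazemetostat over 3 backgrounds (median r 0.454) and 13 of 30 for Tat over 5 settings (0.135). For cocaine added to Tat the count was 20 of 30 (median r 0.453). Low depth limits Cdkn2a, with 13 reads in its lowest library.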

Other observations

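The genes that tazemetostat moved most over the 3 backgrounds are given here, of all genes tested. Over the 2 backgrounds without cocaine 7 genes were called. Among those with a mean of at least 1 CPM the 5 largest rises were Gpnmb (log2 fold change 1.58, limma FDR 5.46e-06), Trem2 (1.35, FDR 0.00582), Arl11 (1.28, FDR 0.00777), AC114233.2 (1.21, FDR 0.0455) and Ncf1 (1.15, FDR 0.0175). Gpnmb is a glycoprotein of lysosome-rich macrophages, Trem2 a receptor of microglia and Ncf1 a subunit of the phagocyte NADPH oxidase. The log2 fold change of Gpnmb was 1.28 for tazemetostat by itself (FDR 0.598), 1.49 when added to Tat (FDR 0.0898) and 1.96 when added to Tat plus cocaine (FDR 0.00103). Other genes moved less evenly. The mean of AC114233.2 was 7.43 CPM in Tat and 8.78 CPM in Tat-Tazemetostat cultures, but 5.81 CPM in Tat-Cocaine and 22.4 CPM in Tat-Cocaine-Tazemetostat cultures.

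The 5 largest falls were Clec10a (-1.16, FDR 0.0170), Npas4 (-1.07, FDR 0.0450), Sema3d (-1.05, FDR 0.0243), Plac8 (-1.04, FDR 0.0156) and AABR07068316.1 (-1.03, FDR 0.0165). Npas4 is an activity-dependent factor of neurons. Its mean was 7.55 CPM in Control and 6.96 CPM with tazemetostat alone, but 4.17 CPM in Tat-Cocaine and 0.434 CPM in Tat-Cocaine-Tazemetostat cultures. Of the 9 neuron markers 2 fell in the same comparison, Snap25 (-0.77) and Tubb3 (-0.52), beside 11.4% of all genes called.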
